A study of Mus musculus with 6 samples.

Results

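The 10 genes described here were grouped as neutrophil and calprotectin genes, and were measured in tibialis anterior (TA) muscle of old mice given vehicle or BML-260. The grouping does not mean that each is made by neutrophils alone. Of the 10 genes (S100a8, S100a9, Csf3r, Cxcr2, Retnlg, Mmp9, Il1r2, Lcn2, Il1b and Ngp), 7 are listed in the TPM tables of the study and were joined by gene identifier to the count table of 45777 genes. Retnlg, Lcn2 and Ngp are not listed in the TPM tables, and are described apart from the 7. All 6 libraries came from TA muscle of male C57BL/6J mice whose labels give an age of 24 months, although the study's text also gives older ages. In the first group, 3 mice received the DMSO and Tween 80 vehicle, and in the second, 3 mice received BML-260, the small molecule used by the study to inhibit the phosphatase DUSP22. The dose was 5 mg/kg by intraperitoneal injection once a day for 1 month, and the study's methods give 3 mice per group. The labels name no transgene, deletion or second agent for either group. The study's reagent list gives its C57BL/6J mice a strain identifier that names the gene Gpr37, without further explanation. The comparison asks which transcripts differ with BML-260 in aged muscle.

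Neutrophils are short-lived granulocytes that form in bone marrow, circulate in blood and enter injured or inflamed muscle. G-CSF, acting on the receptor encoded by Csf3r, drives their formation, and chemokines acting on Cxcr2 draw them out of marrow and into tissue. Mature neutrophils carry S100A8 and S100A9, which pair as calprotectin, a calcium- and metal-binding complex that is a major cytosolic protein of these cells and can signal through TLR4. Precursors in marrow make the granule proteins, with primary granules (Mpo, Elane) first, secondary granules (Ltf, Camp, Ngp, Lcn2) next and gelatinase granules (Mmp9) last. In bulk muscle, fewer neutrophils and less RNA per neutrophil cannot be told apart.

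S100a8 and S100a9 lie on chromosome 3 (GRCm38.p6, the mm10 build named in the submitters' processing notes), S100a8 at chr3:90669071-90670034 on the plus strand and S100a9 at chr3:90692630-90695721 on the minus strand, with 22595 bases between them. Cxcr2 is at chr1:74153994-74161246 on the plus strand. Csf3r lies on chromosome 4, Il1r2 on chromosome 1, and Il1b and Mmp9 on chromosome 2. The 250 bases before the start of S100a8, S100a9 and Cxcr2 are shown because the counts of these genes did not overlap between the groups and their RefSeq promoter windows end at the annotated gene start. The sequences are from RefSeq, GRCm38.p6, and read 5′ to 3′ on the strand of the gene. They cover chr3:90668821-90669070 (plus) for S100a8, chr3:90695722-90695971 (minus) for S100a9 and chr1:74153744-74153993 (plus) for Cxcr2. Capitals mark matches, on either strand, to the C/EBP motif TTNNGNAA, the PU.1 motif GAGGAA and the TATA box TATAAA.
S100a8: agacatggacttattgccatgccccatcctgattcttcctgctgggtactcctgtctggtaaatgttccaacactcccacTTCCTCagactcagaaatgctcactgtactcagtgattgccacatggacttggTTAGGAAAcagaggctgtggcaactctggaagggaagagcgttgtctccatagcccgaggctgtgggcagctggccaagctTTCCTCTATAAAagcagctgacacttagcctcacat
S100a9: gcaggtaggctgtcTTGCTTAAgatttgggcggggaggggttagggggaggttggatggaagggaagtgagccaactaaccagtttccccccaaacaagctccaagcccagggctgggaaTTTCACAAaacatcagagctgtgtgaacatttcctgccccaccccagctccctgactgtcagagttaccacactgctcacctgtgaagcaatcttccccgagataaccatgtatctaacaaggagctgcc
Cxcr2: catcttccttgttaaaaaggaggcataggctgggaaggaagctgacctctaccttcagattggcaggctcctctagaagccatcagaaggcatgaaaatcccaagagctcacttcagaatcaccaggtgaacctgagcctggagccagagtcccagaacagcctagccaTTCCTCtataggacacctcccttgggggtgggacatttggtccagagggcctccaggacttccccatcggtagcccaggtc
C/EBP proteins and PU.1 are the transcription factors best known for the granulocyte program. The S100a8 window held 1 C/EBP match, from 117 to 110 bases before the start, 2 PU.1 matches and a TATA box from 30 to 25 bases before the start that directly follows the nearer PU.1 match. S100a9 held 2 C/EBP matches and no TATA box, and Cxcr2 held 1 PU.1 match. Promoter entries were found for 9 of the 10 genes (none for Mmp9), and of the 9 windows that of Il1b also held a TATA box and a C/EBP match. Over all 32851 RefSeq promoter windows of this length, 36.8% held the C/EBP motif, 23.3% the PU.1 motif and 12.4% the TATA box, so that each match is common. The AP-1 motif TGANTCA, found in 6.75% of windows, matched none of the 9. A match describes letters and was not tested as a binding site.

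The libraries held between 39522890 and 56998875 counts (median 47777396). The levels given for each library are CPM, the counts scaled to a common library size that was adjusted by TMM. Differences are log2 fold changes of BML-260 over vehicle from the quasi-likelihood test of edgeR, run on the 16188 genes left after its low-count filter, with p-values adjusted over those genes by the Benjamini-Hochberg method. Vehicle replicate 3 stood apart: it had the highest CPM of the 6 libraries for all 7 genes, and its TMM factor was 1.203 against 0.914 to 1.02 in the other 5. The fitted values of the 7 genes are therefore given with and without it. Skeletal muscle fiber markers (Acta1, Ckm, Myh4, Myh1, Tnnt3, Des, Mb and Ttn) were all present and summed to between 143000 and 218900 CPM.

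S100a8 and S100a9 had the largest differences of the 7 genes. S100a8 had 819, 106 and 4413 counts in vehicle replicates 1, 2 and 3, and 45, 27 and 48 counts in BML-260 replicates 1, 2 and 3. As levels these were 16.8, 2.92 and 70.4 CPM with vehicle and 0.834, 0.576 and 1.27 CPM with BML-260. All 3 vehicle libraries were above all 3 BML-260 libraries, but they differed among themselves by more than the lowest of them differed from BML-260. The fitted log2 fold change was -5.09 (standard error 1.05, unadjusted p = 0.00111, adjusted p = 0.553 in edgeR), a 34.1-fold lower level with BML-260. Only 4 of the 16188 tested genes had a lower fitted value. Without vehicle replicate 3 the log2 fold change of S100a8 was -3.49 (standard error 0.58, adjusted p = 0.0810 in edgeR).

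S100a9 had 1433, 145 and 5499 counts with vehicle and 78, 60 and 72 with BML-260. Its levels were 29.4, 3.99 and 87.7 CPM with vehicle and 1.45, 1.28 and 1.90 CPM with BML-260, again without overlap. The difference on the log2 scale was -4.72 (standard error 0.95; edgeR unadjusted p = 0.000966 and adjusted p = 0.553), or -3.45 without vehicle replicate 3 (standard error 0.60, adjusted p = 0.0986 in edgeR). In TPM, which is scaled for length and so allows genes to be compared, S100a8 stood at rank 257 of the 16800 listed genes in vehicle replicate 3, at rank 984 in replicate 1 and at rank 4459 in replicate 2. In the BML-260 libraries it stood between ranks 7409 and 9662. The ratio of S100a9 to S100a8 TPM, the transcripts of the subunits of calprotectin, lay between 0.933 and 1.31 in the vehicle libraries and between 1.13 and 1.67 in the BML-260 libraries, with overlap (exact permutation test, 2-sided, p = 0.3). The level thus varied over a far wider range than the proportion of the subunits.

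**Figure D1:**
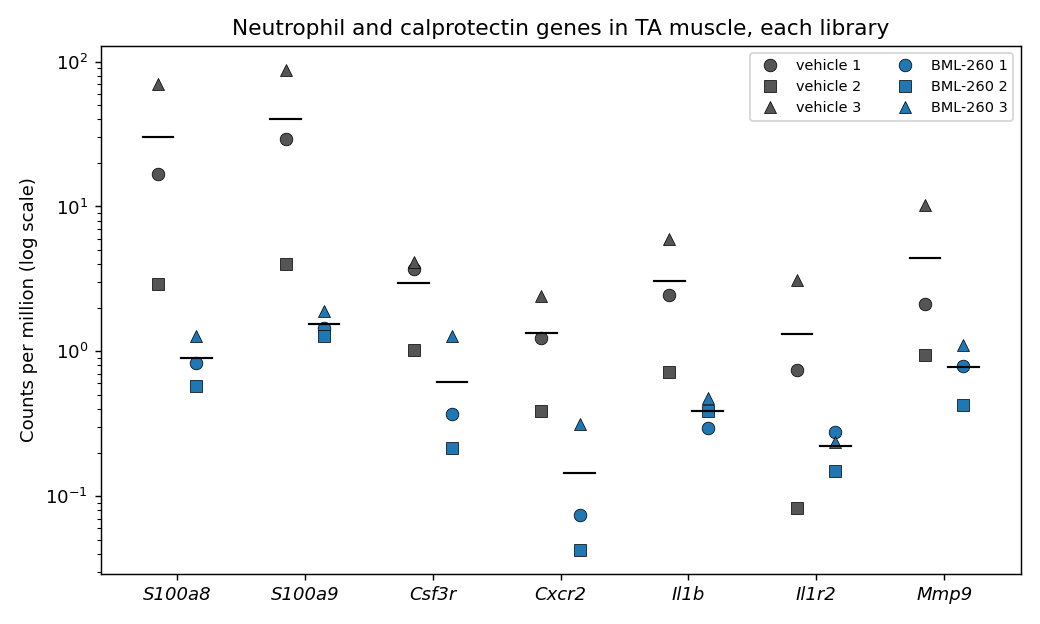
CPM (log scale) of the 7 genes in each of the 6 TA libraries, with vehicle in grey, BML-260 in blue, a symbol for each replicate and a bar at each group mean. Vehicle replicate 3 is the highest library for every gene, and the groups do not overlap for S100a8, S100a9, Cxcr2 and Il1b.

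Of the receptors, Csf3r, the G-CSF receptor, had 181, 37 and 258 counts with vehicle and 20, 10 and 48 with BML-260. In CPM the vehicle libraries had 3.72, 1.02 and 4.11 and the BML-260 libraries 0.371, 0.213 and 1.27, so that BML-260 replicate 3 lay above vehicle replicate 2. The fitted log2 value of Csf3r was -2.30 (standard error 0.71; edgeR unadjusted p = 0.0114, adjusted p = 0.699) and -1.99 without vehicle replicate 3 (standard error 0.66). Csf3r was the member for which vehicle replicates 1 and 3 lay closest together.

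Cxcr2, the receptor for the neutrophil-attracting CXC chemokines, had 60, 14 and 151 counts with vehicle and 4, 2 and 12 with BML-260. The vehicle levels were 1.23, 0.385 and 2.41 CPM and the BML-260 levels 0.0741, 0.0427 and 0.317 CPM, without overlap, although the lowest vehicle and highest BML-260 library nearly met. For Cxcr2 the fitted log2 value was -3.28 (standard error 0.86; edgeR unadjusted p = 0.00464, adjusted p = 0.631), and -2.56 without vehicle replicate 3 (standard error 0.80). Cxcr2 reached the filter level of 0.209 CPM in 3 vehicle libraries and 1 BML-260 library, so that it was tested because of its level with vehicle. With so few counts in the BML-260 libraries, counting error alone is large. The TPM ratio of Cxcr2 to Csf3r was 0.395, 0.612 and 0.796 with vehicle and 0.283, 0.316 and 0.319 with BML-260 (exact permutation test on log2 ratios, 2-sided, p = 0.1, the smallest p that 3 against 3 libraries allow).

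Of the interleukin-1 genes, Il1b encodes the cytokine IL-1β and Il1r2 a decoy receptor that binds it without signaling. Il1b had 120, 26 and 375 counts with vehicle and 16, 18 and 18 with BML-260, or 2.46, 0.715 and 5.98 CPM against 0.297, 0.384 and 0.475 CPM. The BML-260 libraries lay close together and below all vehicle libraries. For Il1b the log2 difference was -3.00 (standard error 0.70; edgeR unadjusted p = 0.00236, adjusted p = 0.598) and -2.07 without vehicle replicate 3 (standard error 0.52). Il1r2 had 36, 3 and 195 counts with vehicle and 15, 7 and 9 with BML-260. Vehicle replicate 2 thus had the lowest level of all 6 libraries (0.0825 CPM), below the BML-260 libraries at 0.149 to 0.278 CPM. The log2 fold change of Il1r2 was -2.57 (standard error 1.00, unadjusted p = 0.0324, adjusted p = 0.788 in edgeR). Without vehicle replicate 3 it was -0.92 (standard error 0.81, unadjusted p = 0.283 in edgeR), so that the value of Il1r2 rested on that library.

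Mmp9, a gelatinase that neutrophils store in granules and that macrophages also make, had 103, 34 and 644 counts with vehicle and 43, 20 and 42 with BML-260. In CPM this was 2.12, 0.935 and 10.3 against 0.797, 0.427 and 1.11, with BML-260 replicate 3 above vehicle replicate 2. The log2 fold change of Mmp9 was -2.53 (standard error 0.82, unadjusted p = 0.0143, adjusted p = 0.733 in edgeR), and -0.99 without vehicle replicate 3 (standard error 0.46, unadjusted p = 0.0559 in edgeR). Timp1, an inhibitor of this protease, had 37, 32 and 190 counts with vehicle and 28, 11 and 14 with BML-260. Timp1 had a log2 fold change of -2.06 (-1.11 without vehicle replicate 3), against values between 0.029 and 0.11 for Timp2, Timp3 and Timp4. Of the 8 gelatinase, inhibitor and lipocalin receptor genes, 7 were tested, and only Mmp9 and Timp1 were lower by at least 1.3-fold with an edgeR unadjusted p under 0.05, beside 4.86% of all tested genes. Without vehicle replicate 3 this held for Timp1, beside 2.92%. Mmp2, the other gelatinase, had a log2 fold change of -0.43 (-0.42 without vehicle replicate 3) and did not pass the test.

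The 3 genes outside the TPM tables had the same order among the vehicle libraries, with replicate 3 highest and replicate 2 lowest. Retnlg, a resistin-like secreted protein of mouse neutrophils, had 116, 12 and 551 counts with vehicle and 0, 0 and 10 with BML-260. Lcn2, the iron-siderophore binding protein lipocalin 2, had 48, 27 and 875 counts with vehicle and 16, 15 and 27 with BML-260, with vehicle replicate 2 at 0.743 CPM and BML-260 replicate 3 at 0.713 CPM. Ngp, a secondary granule protein, had 8, 0 and 1036 counts with vehicle and 0 in each BML-260 library. Retnlg and Lcn2 passed the filter, with log2 fold changes of -5.62 (standard error 1.43) and -3.60 (standard error 1.13). Without vehicle replicate 3 these were -4.12 for Retnlg and -0.99 for Lcn2 (edgeR, unadjusted p = 0.00395 and 0.0795). Retnlg reached the filter level in 3 vehicle libraries and 1 BML-260 library, so that it was tested because of its level with vehicle. With counts of 0 in 2 BML-260 libraries, its level with BML-260 rests on the 10 counts of replicate 3. A count of 0 allows up to 3 counts, which is between 0.0556 and 0.0792 CPM in the BML-260 libraries, and covers counting error only.

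Genes were called at a threshold of 1.3-fold and an unadjusted p below 0.05. At this threshold edgeR called all 7 listed genes lower with BML-260, beside 4.86% of all tested genes called lower. Cxcr2 reached the filter level in 3 vehicle libraries and 1 BML-260 library, and Il1r2 in 2 libraries of each group. Both thus needed their level with vehicle to be tested. The genes were also chosen with earlier results of these data known, so that counts over the 7 describe the list and are no support. The median log2 fold change of the 7 was -3.00, against -0.0039 over all tested genes. At an adjusted p under 0.05 edgeR called 0 of the 7, as it called 0.0% of all tested genes, where 966 genes had an unadjusted p under 0.05. DESeq2's Wald test gave an adjusted p under 0.05 for 4 of the 7: Il1b (0.00237), S100a8 (0.00441), S100a9 (0.00465) and Cxcr2 (0.0222), all by Benjamini-Hochberg adjustment, beside 0.557% of the genes with a DESeq2 adjusted p called lower. Groups did not overlap for 4 of the 7, beside 6.91% of tested genes that were lower without overlap. With vehicle replicate 3 left out, 5 of the 7 stayed past the threshold by edgeR (S100a8, S100a9, Csf3r, Cxcr2 and Il1b), beside 2.92% of genes called lower in that fit, and the median log2 fold change was -2.07. The summed level of the 7 genes was 56.5, 10.04 and 184 CPM in the vehicle libraries and 4.097, 3.07 and 6.57 CPM in the BML-260 libraries.

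**Figure D2:**
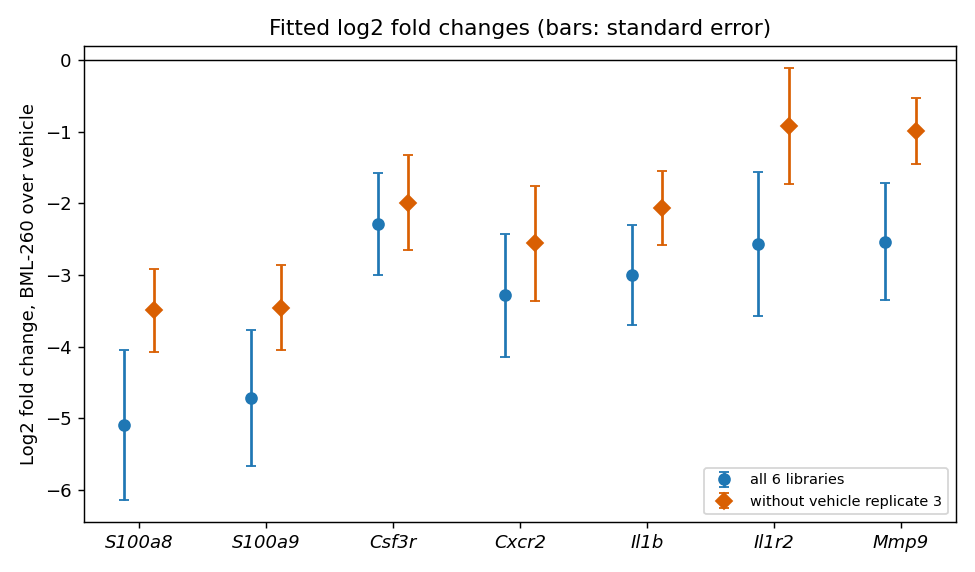
Fitted log2 fold change of BML-260 over vehicle (edgeR, bars: standard error) for the 7 genes, with all 6 libraries (blue circles) and without vehicle replicate 3 (orange diamonds). All values are below 0 in both fits, and those of Il1r2 (-2.57 and -0.92) and Mmp9 (-2.53 and -0.99) moved most relative to their size.

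On the TPM scale, the order of the mean levels with BML-260 was S100a9 (4.76 ± 1.13, SD, n = 3), S100a8 (3.66 ± 1.51), Mmp9 (0.366 ± 0.139), Il1b (0.322 ± 0.0951), Csf3r (0.237 ± 0.239), Il1r2 (0.167 ± 0.0509) and Cxcr2 (0.0742 ± 0.0773). Neighbours in this order differed by less than the larger SD of the pair, except S100a8 and Mmp9, and Il1r2 and Cxcr2. With vehicle, the mean TPM was 165 ± 216 (SD, n = 3) for S100a8 and 163 ± 196 for S100a9, where each SD exceeds its mean. Below them came Il1b (3.95 ± 4.05), Mmp9 (2.96 ± 3.88), Il1r2 (1.80 ± 2.55), Csf3r (1.42 ± 1.00) and Cxcr2 (0.890 ± 0.833), and no neighbours in the vehicle order differed by more than the larger SD of the pair. Relative to S100a8, Mmp9 had a TPM ratio of 0.0151, 0.0346 and 0.0180 with vehicle and of 0.117, 0.0918 and 0.0941 with BML-260 (exact permutation test on log2 ratios, 2-sided, p = 0.1). The same ratio for Il1b was 0.0406, 0.0485 and 0.0204 with vehicle and 0.0709, 0.134 and 0.0772 with BML-260 (exact permutation test, 2-sided, p = 0.1). For Mmp9 and Il1b the ratio to S100a8 was thus higher in every BML-260 library than in every vehicle library. The ratio of Csf3r to S100a8 was 0.0238, 0.0276 and 0.00553 with vehicle and 0.0398, 0.0304 and 0.0954 with BML-260 (exact permutation test, 2-sided, p = 0.1). For Cxcr2 the ratio to S100a8 overlapped between the groups (exact permutation test, 2-sided, p = 0.4). Over the 8 ratios computed, the Benjamini-Hochberg adjusted p of the exact permutation test was 0.2 at its smallest, so that none passed.

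The granule proteins of neutrophil precursors set vehicle replicate 3 apart from vehicle replicates 1 and 2. The list held 12 genes (Mpo, Elane, Prtn3, Ctsg, Cebpe, Camp, Ltf, Ngp, Lcn2, Chil3, Mmp8 and Mmp9), of which Cebpe encodes a C/EBP transcription factor and not a granule protein. All 12 had their highest level and at least 10 counts in vehicle replicate 3, and 6 had no count in any BML-260 library. Mpo, the myeloperoxidase of primary granules, had 2, 0 and 178 counts with vehicle and 0 in each BML-260 library. Ltf, the iron-binding lactoferrin of secondary granules, had 0, 14 and 1211 counts with vehicle, and Camp, a cathelicidin, had 0, 0 and 494. Neither had a count with BML-260. Vehicle replicate 1, in which S100a8 had 819 counts, had no count of Ltf, Camp, Elane or Ctsg. The summed granule list was 4.35 and 3.55 CPM in vehicle replicates 1 and 2 and 101 CPM in replicate 3, against 1.37 to 2.35 CPM with BML-260. Only 4 of the 12 passed the filter on low counts (Lcn2, Mmp8, Mmp9 and Chil3). Mmp8 reached the filter level in 3 vehicle and 2 BML-260 libraries, and Chil3 in 2 libraries of each group. Both thus needed their level with vehicle to be tested, and a count of calls over the 4 is no support. By edgeR these 4 were called lower with all libraries, beside 4.86% of tested genes, and 0 of the 4 without vehicle replicate 3, beside 2.92%.

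Of 20 surface and other neutrophil markers, 8 passed the filter on low counts: Csf3r, Cxcr2, Il1r2, Retnlg, Fpr2, Clec4d, Hdc and Slfn4. Fpr2 reached the filter level in 3 vehicle libraries and 0 BML-260 libraries, and Cxcr2, Retnlg and Clec4d in 3 vehicle libraries and 1 BML-260 library. Hdc and Slfn4 reached it in 3 vehicle and 2 BML-260 libraries, and Il1r2 in 2 libraries of each group. All but Csf3r thus needed their level with vehicle to be tested, and a count of calls over the 8 is no support. By edgeR each of the 8 was called lower with all libraries, beside 4.86% of tested genes, and each but Il1r2 without vehicle replicate 3, beside 2.92%. Clec4d, a C-type lectin receptor of myeloid cells, had 41, 21 and 280 counts with vehicle and 10, 11 and 7 with BML-260 (log2 fold change -3.28, standard error 0.81; -1.81 without vehicle replicate 3). Fpr2, a formyl peptide receptor, had 18, 11 and 92 counts with vehicle and 3, 5 and 0 with BML-260 (log2 fold change -3.62, standard error 0.95; -2.52 without vehicle replicate 3). Slfn4, a Schlafen family gene of myeloid cells, had 44, 18 and 477 counts with vehicle and 0, 10 and 9 with BML-260 (-4.39, or -2.27 without vehicle replicate 3). Hdc, the histamine-forming enzyme, had 65, 16 and 204 counts with vehicle and 13, 14 and 0 with BML-260 (-3.17, or -2.25 without vehicle replicate 3). The summed list was 14.2, 3.99 and 54.9 CPM with vehicle and 1.54, 1.49 and 2.96 CPM with BML-260. Ly6g, the usual surface marker of mouse neutrophils, had 32 counts in vehicle replicate 3 and 0 in each of the other 5 libraries.

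**Figure D3:**
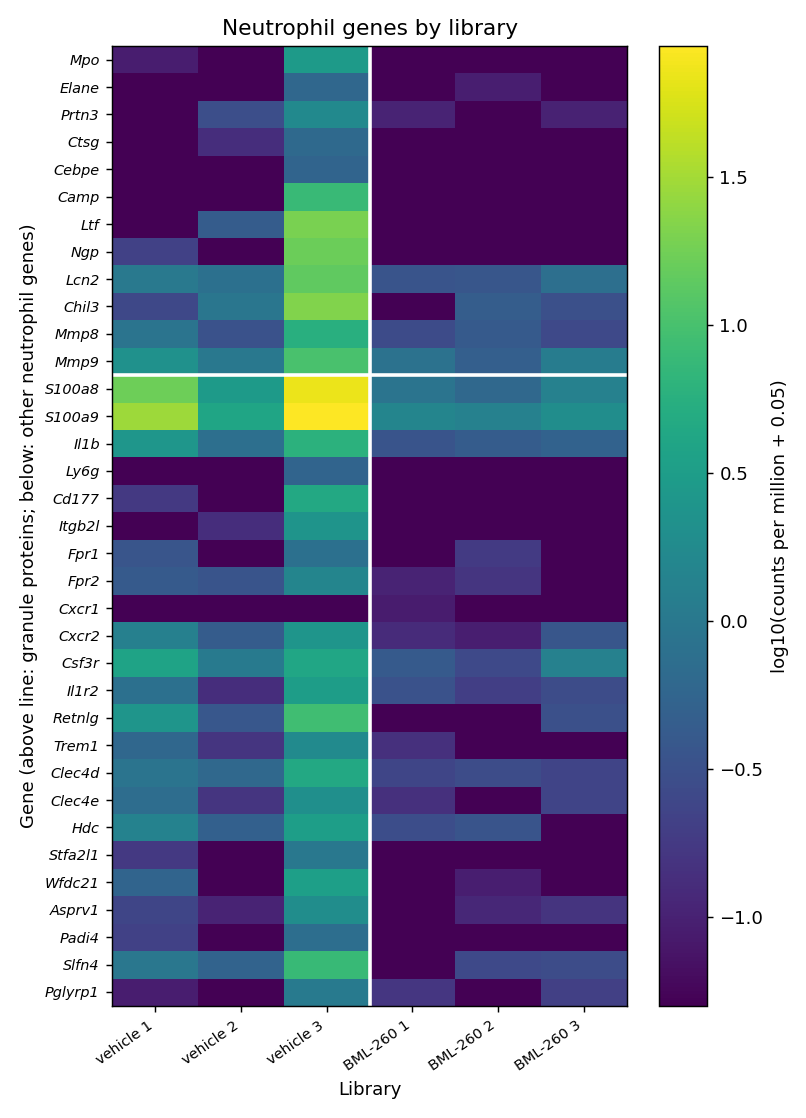
Level of neutrophil genes in each library as log10(CPM + 0.05), with granule proteins and the transcription factor gene Cebpe above the white line. S100a8, S100a9, Il1b and the 20 surface and other markers are below it, and vehicle libraries are left of the vertical line. The rows from Mpo to Ngp are highest in vehicle replicate 3, where Ltf reached 19.3 CPM but Elane, Ctsg and Cebpe only 0.510 to 0.590 CPM. S100a8, S100a9 and Csf3r are also bright in vehicle replicate 1, and S100a8 and S100a9 reach 2.92 and 3.99 CPM in vehicle replicate 2.

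Among genes that recruit neutrophils, the ligands of Cxcr2 were scarce. Cxcl1 had 10, 0 and 129 counts with vehicle and 8, 6 and 5 with BML-260, and Cxcl2 had 79 counts in vehicle replicate 3 and 0 in the other 5. Csf3, the ligand of Csf3r, had no count in any library, as had Cxcl3 and Cxcl5. Of the 7 tested genes of this list, edgeR called 6 lower and 0 higher, beside 4.86% of tested genes called lower. Without vehicle replicate 3 it called 4 of the list, beside 2.92%. The genes described next were among the 6 called lower. Selp, the endothelial and platelet adhesion molecule P-selectin, had 175, 52 and 244 counts with vehicle and 45, 38 and 42 with BML-260 (log2 fold change -1.70, standard error 0.40; -1.47 without vehicle replicate 3). Itgam and Itgb2, the chains of the integrin CD11b/CD18 shared by neutrophils and macrophages, had log2 fold changes of -1.74 and -1.27, and -0.74 and -0.64 without vehicle replicate 3. Icam1, its endothelial ligand, had -1.21, or -0.74 without that library. C5ar1, the C5a receptor, had -1.13, with overlap between the groups, and was not called without vehicle replicate 3.

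In the list of calprotectin and IL-1 signaling, 11 of 14 genes were tested. Of these 11, 4 were called lower (Il1b, Il1r2, Tlr4 and Il1r1) and 0 higher by edgeR, beside 4.86% of tested genes called lower. Without vehicle replicate 3 only Il1b and Tlr4 of the list were called, beside 2.92%. Tlr4, a receptor for calprotectin, had 1180, 1107 and 4282 counts with vehicle and 812, 855 and 605 with BML-260, which gave -1.32 on the log2 scale (standard error 0.35), or -0.73 when vehicle replicate 3 was left out. Bsg, another proposed receptor, had 0.28 (0.21 without vehicle replicate 3) and did not pass the test. Il1r1, the signaling receptor of IL-1β, had -0.50 (standard error 0.20), with overlap between the groups, and -0.41 without vehicle replicate 3 (edgeR, unadjusted p = 0.0604). Il1rap, its co-receptor, had 0.016 (0.16 without vehicle replicate 3). The other 5 tested genes of the list (Myd88, Casp1, Nlrp3, Pycard and Gsdmd) did not pass either, with values between -1.13 and -0.35. Il1a had no count in any library. Of the 6 tested genes of the phagocyte NADPH oxidase, 4 were called lower, beside 4.86% of tested genes. Rac2 (-1.84), Ncf1 (-1.40) and Cybb (-1.28) were among them, and Cyba (-0.42) and Ncf4 (-1.19) did not pass the test. Without vehicle replicate 3, Rac2 (-1.27) and Cybb (-0.74) were still called, beside 2.92% of tested genes, and Ncf1 (-0.26) was not.

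Vehicle replicate 3 also had the highest summed level of erythroid, monocyte and macrophage, and platelet markers, but not of lymphocyte markers (0.749 CPM, against 0.924 and 1.68 CPM in vehicle replicates 1 and 2). The 11 lymphocyte markers held only 45, 61 and 47 counts in total in vehicle replicates 1, 2 and 3. Only 1 of the 11 was tested, so that counts this low cannot show whether lymphocytes differed between these libraries. The 7 erythroid markers, led by hemoglobin genes, summed to 731, 840 and 2365 CPM with vehicle and to 591 to 795 CPM with BML-260 (exact permutation test, 2-sided, p = 0.2). All 7 were highest in vehicle replicate 3, and edgeR called 4 of them lower with all libraries (beside 4.86% of tested genes) and 2 without that library (beside 2.92%). The 14 monocyte and macrophage markers summed to 148, 161 and 412 CPM with vehicle and to 91.3 to 114 CPM with BML-260 (exact permutation test, 2-sided, p = 0.1). Of these, 9 were called lower by edgeR (beside 4.86%), and 8 genes of the list without vehicle replicate 3 (beside 2.92%). The 5 platelet markers, of which 2 were highest in vehicle replicate 3, summed to 7.001, 8.89 and 16.0 CPM with vehicle and to 4.37 to 6.36 CPM with BML-260 (exact permutation test, 2-sided, p = 0.1). In vehicle replicate 1 the 7 neutrophil and calprotectin genes summed to 5.63 times the level of replicate 2, whereas its erythroid sum was 0.870 times and its macrophage sum 0.921 times that of replicate 2. The part of blood or marrow cells in the result was not tested.

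**Figure D4:**
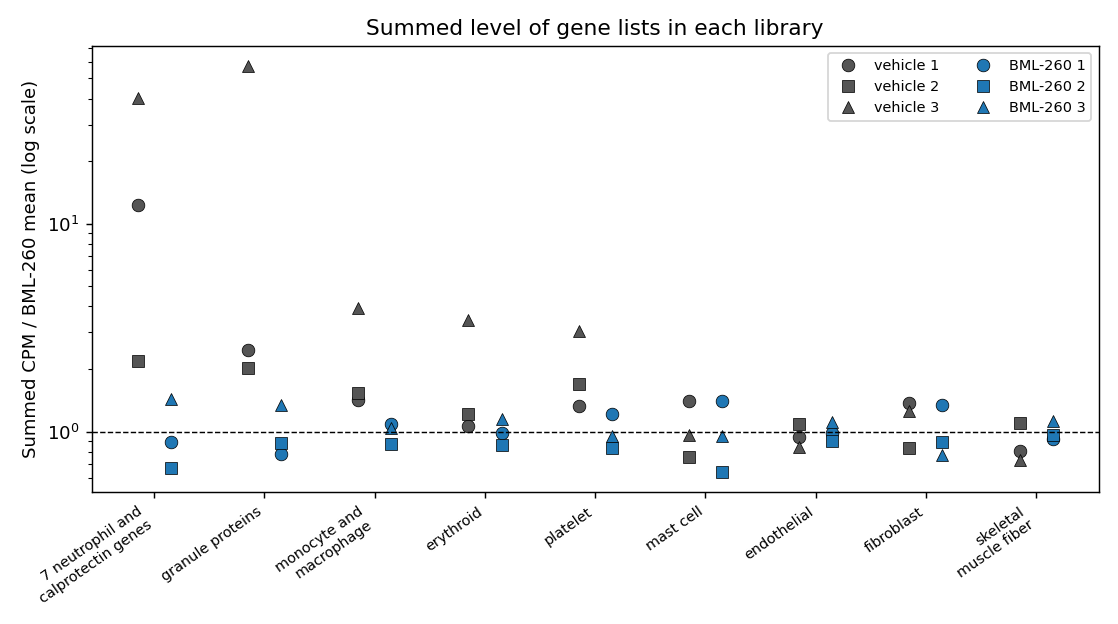
Summed CPM of each gene list in each library divided by its mean over the 3 BML-260 libraries (log scale, dashed line at 1), with a symbol for each replicate. Vehicle replicate 3 is at 40.2 for the 7 genes, 57.2 for the granule protein list (with Cebpe), 3.94 for macrophage and 3.44 for erythroid markers. Vehicle replicate 1 is at 12.3 for the 7 genes and 1.06 for erythroid markers.

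Across the 6 libraries, the tested genes whose log2 CPM was most like the mean standardized level of the 7 were Gm10155 (Pearson r = 0.995), Eif3l (0.992), Irak1bp1 (0.991), Tmem252 (0.990) and Hpse (0.989). These values describe 6 libraries, of which vehicle replicate 3 is far from the rest. Only Tmem252 had a log2 fold change like that of the 7 genes (-3.20), with 91, 22 and 314 counts with vehicle and 12, 11 and 14 with BML-260. Eif3l had one of -0.25. Of the 7 genes themselves, S100a8 followed the mean most closely (0.992) and Il1r2 least (0.897).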

How the data were processed

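RNA was sequenced from the TA muscle of 3 mice given vehicle and 3 given BML-260. Per the submitters' processing notes, reads were trimmed with Trimmomatic 0.38, mapped to mm10 with HISAT2 2.1.0 and Bowtie2 2.3.4.1, and assembled with StringTie 2.1.3b. The authors deposited raw read counts per gene in 1 table, and TPM values for each library, scaled for length and library size. The kit was stranded, and how strand and multi-mapped reads were counted is not given in the sources used here. RefSeq (GRCm38.p6) gave symbols for 45679 of 45777 gene identifiers.

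Counts were analysed with edgeR 4.0.16 in R 4.3.3 (filterByExpr, TMM, quasi-likelihood F-test, Benjamini-Hochberg adjustment over 16188 genes). The standard error is the log2 fold change divided by the square root of F. For summed levels and ratios, 2-sided exact permutation tests over the samples were used, with a smallest p of 0.1. Alternatives used DESeq2 1.42.0, apeglm 1.24.0 and limma 3.58.1, the last also on log2(TPM + 1) and log2(TPM + 0.1). The fit was also run on simulated data with 200 changed genes. No simulated library stood apart as vehicle replicate 3 does, so that this run does not show how the fit behaves with such a library. The genes and lists were chosen with earlier results of these data known. All 10 genes were named, with at most 6 genes past the threshold per list by smallest p, ligands and receptors of the 10, and the 5 genes with the highest correlation; granule, marker and untested genes beyond this were named after their values were seen. The labels number the samples but do not say that each is a separate mouse; the study's methods give 3 per group. Figures were drawn with matplotlib 3.10.9. Some genes of the recruitment and NADPH oxidase lists are not reported here.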

Additional observations from a re-analysis of the deposited data

How the results depend on the processing

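Fitted values were below 0 for each of the 7 genes in every alternative that tested it, and between 5 and 7 genes passed the threshold in the 16 alternatives other than apeglm shrinkage. The median log2 fold change of the 7 was between -3.46 and -2.07 with 1 library left out, and -1.09 on log2(TPM + 1), a scale that understates changes of low genes. The number of tested genes at the threshold was 931, and 1416 with no filter on low counts, 503 on log2(TPM + 1), and between 503 (without BML-260 replicate 2) and 2223 (without vehicle replicate 1) with 1 library left out. Mmp9 no longer passed in 5 of its 17 alternatives and Il1r2 in 9 of 16, apeglm and the fit without vehicle replicate 3 among them. The adjusted p of S100a8 ranged from 0.00441 (DESeq2's Wald test) to 0.984 over its alternatives. With apeglm shrinkage the fitted value was -0.00063 for S100a8, -0.0013 for Csf3r and Mmp9 and -0.00074 for Il1r2, none of which reaches 1.3-fold, but -4.16 for S100a9, -2.75 for Cxcr2 and -2.68 for Il1b, so that 3 of the 7 kept a fold past the threshold. The cause was not tested. With the replicate block 1057 tested genes and 6 of the 7 were called, and the values were -4.34 for S100a8, -3.97 for S100a9 and -1.78 for Il1r2, which was then not called (edgeR, unadjusted p = 0.0784). Same-numbered libraries of the groups had correlations of 0.162, 0.0541 and 0.110 between their deviations from the group means, not all above 0.1, so that the numbers were not taken as pairs, although each library was most like its own number. Cxcr2 and Il1r2 were not tested when 10 counts in every library were required. Low counts limit Cxcr2 and Il1r2 most, with 2 to 15 counts in the BML-260 libraries.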

Other observations

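Some cell types that can reach a TA sample were at or near 0. The 4 eosinophil markers (Prg2, Epx, Siglecf and Ccr3) had between 0 and 5 counts in total in each library. The 11 lymphocyte markers summed to between 0.713 and 1.68 CPM, with overlap between the groups (exact permutation test, 2-sided, p = 1.0). Krt5 and Krt14, keratins of basal skin cells, had no count in any library. Mast cell markers (Cpa3, Mcpt4, Cma1, Tpsb2 and Ms4a2) summed to between 2.13 and 4.67 CPM, with overlap (exact permutation test, 2-sided, p = 0.8). The endothelial markers summed to 126 ± 16.2 CPM with vehicle and 131 ± 14.5 CPM with BML-260 (SD, n = 3), and the fibroblast markers to 706 ± 176 and 612 ± 182 CPM (SD, n = 3). In neither list did the summed level separate the groups (exact permutation test, 2-sided, p = 0.7 for both).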
